A study of Homo sapiens with 12 samples.

Results

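The genes described here encode the respiratory chain and the ATP synthase, the protein complexes of the inner mitochondrial membrane that pass electrons to oxygen and make ATP. Members were the rows of the count table whose gene symbol begins with MT-ND, MT-CO, MT-CYB, MT-ATP, NDUFA, NDUFB, NDUFC, NDUFS, NDUFV, UQCR, ATP5, COX4, COX5, COX6, COX7 or COX8 and which held 10 or more counts in at least 6 of 12 libraries. Of 107 rows with such a symbol, 91 passed, among 13093 of 19901 genes in the whole table. The members comprised the 13 protein genes of the mitochondrial chromosome (chrM) and 78 nuclear genes, of which 33 belong to complex I, 8 are NDUFAF assembly factors of complex I, 8 belong to complex III, 13 to complex IV and 16 to complex V, the ATP synthase.

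RNA was measured in HCT116 KAP1-dTAG cells, derived from an established human colon carcinoma line, in which KAP1 (the product of TRIM28) carries a degron tag and is degraded when the small molecule dTAG is added. All groups carried this tag, came from 1 clone, were starved of serum for 48 h and were treated for 8 h with either DMSO, the solvent, or dTAG. DMSO-S0 and dTAG-S0 stayed without serum, whereas DMSO-S30 and dTAG-S30 received serum for 30 min, with 3 libraries per group. Levels are CPM, that is, counts relative to library size, after upper-quartile scaling. Differences are log2 fold changes with their standard error from edgeR's two-sided quasi-likelihood test over all 13093 genes, called at an adjusted p under 0.05. The p-values measure the spread between the 3 libraries of a group, which the study describes as biological replicates.

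The libraries held 18658747 to 23861254 counts in genes. The serum labels were visible in FOS, an immediate early gene, which lay at 4.63 to 6.41 CPM in the 6 starved libraries and at 372 to 536 CPM in the 6 serum libraries. TRIM28 RNA lay at 85.5 to 100.2 CPM in starved libraries and 103 to 120.4 CPM in serum libraries, and since dTAG acts on the protein, the RNA holds no check of the depletion. Cell type markers are given in CPM without the upper-quartile scaling. Of the epithelial markers, EPCAM, KRT8, KRT18 and CDH1 were at 79.5 CPM or more in every library, but CDH17 did not exceed 0.312 CPM. COL1A2, DCN and HBB, markers of fibroblasts and red blood cells, were at 0 in 10 of 12 libraries each. COL1A1 lay at 12.01 to 84.0 CPM and PDGFRB, also a fibroblast marker, at 0.0476 to 0.629 CPM. Of the other blood cell markers, CD68 lay at 3.16 to 4.60 CPM and PTPRC at 0.379 to 1.52 CPM. CD3E did not exceed 0.303 CPM. Of the endothelial markers, VWF lay at 1.05 to 2.53 CPM and PECAM1 did not exceed 0.434 CPM.

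Complex I takes electrons from NADH, complex III passes them to cytochrome c, complex IV reduces oxygen, and complex V uses the resulting proton gradient to make ATP. Each of these complexes combines subunits encoded on chrM with subunits encoded in the nucleus, so that 2 genomes transcribed by different polymerases must supply their parts. The chrM genes are transcribed by the mitochondrial RNA polymerase as long transcripts of either strand that are then cut into shorter RNAs. All but MT-ND6 are read from the same transcript, which is known as the heavy-strand transcript.

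Overlaps between chrM genes bear on which counts can be told apart, and the shared bases of the 2 pairs with the longer overlaps are shown for this reason. In hg38, the end of MT-ATP8 (chrM:8366-8572, plus strand) lies inside the start of MT-ATP6 over 46 bases, and MT-ND4L overlaps the start of MT-ND4 over 7 bases. MT-ATP6 and MT-CO3 meet at position 9207, which belongs to both. The windows chrM:8515-8584 and chrM:10740-10786 are given on the plus strand, with the bases that belong to both genes in capitals.
MT-ATP8/MT-ATP6: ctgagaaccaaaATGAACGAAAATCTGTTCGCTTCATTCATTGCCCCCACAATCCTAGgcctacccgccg
MT-ND4L/MT-ND4: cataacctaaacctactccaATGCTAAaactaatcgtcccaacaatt
Reads that cover capitals match both genes, so MT-ATP8 and MT-ND4L, the short partners, are the less certain values among the 13. For the same reason the genes of a pair are not separate observations. MT-ND1 (chrM:3307-4262) and MT-ND2 (chrM:4470-5511), on the plus strand, overlap no other gene model of the table.

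The nuclear member with the strongest serum result among ATP synthase genes, ATP5PF (chr21:25716503-25735673, minus strand, hg38), encodes the coupling factor of the peripheral stalk. Its promoter is printed because 1 of its start sites has a window with all 3 motifs that were searched on both strands, namely the core of NRF1 (CGCATGCG), the core of ETS factors such as GABP (CCGGAAG) and the core of YY1 (AAGATGGC). The window chr21:25735055-25735304 on the minus strand is the 250 bases before a RefSeq start site in GRCh38.p14, with the motifs in capitals. It lies inside the gene span of the count table. The window of another RefSeq start of this gene, chr21:25734905-25735154, holds the ETS and YY1 cores but not the NRF1 core.
ATP5PF: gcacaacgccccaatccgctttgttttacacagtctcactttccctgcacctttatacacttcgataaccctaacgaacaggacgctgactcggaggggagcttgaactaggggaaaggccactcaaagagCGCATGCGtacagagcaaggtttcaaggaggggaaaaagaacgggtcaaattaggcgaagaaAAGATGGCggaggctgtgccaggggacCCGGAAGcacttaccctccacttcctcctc
Promoter windows from 250 bases before to 50 bases after a start were found for 65 of the 78 nuclear members. The NRF1 core occurred in 16.9% of these members, against 2.46% of all 27305 genes with a window and 4.28% of the 10413 tested genes with a window. The ETS core occurred in 29.2% of members, 12.2% of all genes and 21.4% of tested genes. The YY1 core occurred in 12.3% of members, 3.52% of all genes and 6.20% of tested genes. These matches are descriptions of letters in the windows and no binding was measured in these samples.

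The 13 chrM genes held most of the counts of the members. They took 91.9% to 94.0% of all member counts in each library and 7.18% to 9.04% of all counts in genes, whereas the 78 nuclear members together took 0.550% to 0.665% of counts in genes. Per kb of gene span, MT-ATP8 was the highest of the 13 at 14643 CPM per kb over the 12 libraries, followed by MT-CO3 and MT-CO2, which encode core subunits of complex IV. The lowest were MT-ND4L at 1386 CPM per kb and MT-ND6, the only member on the minus strand of chrM, at 619 CPM per kb. MT-ATP8 and MT-ND4L span only 207 and 297 bases and overlap a neighbour on the same strand, so their ranks per kb are less certain.

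The nuclear members were lower by orders of magnitude on the same scale, with a median of 4.001 CPM per kb of span against 5207 CPM per kb for chrM genes. Because introns were counted, levels were also set per kb of exons, where the nuclear median was 19.8 CPM per kb. These exon lengths come from GENCODE and exceed the counted span for UQCRB, UQCRQ and NDUFB11, so the order on the exon scale is less certain. On the exon scale the 5 highest nuclear members were NDUFS5 (241 CPM per kb), ATP5F1B (190 CPM per kb), ATP5MK (116 CPM per kb), NDUFA1 (111 CPM per kb) and COX7C (96.8 CPM per kb). On the span scale COX7C, a small subunit of complex IV, was highest at 62.3 CPM per kb and ATP5F1B, the catalytic beta subunit of the ATP synthase, followed at 53.8 CPM per kb.

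Several subunits of complex IV have a common form and a form restricted to certain tissues or conditions. COX4I1 lay at a mean of 223 CPM and COX7B at 91.6 CPM over the 12 libraries, while their restricted partners COX4I2 and COX7B2 never exceeded 2 and 4 counts in a library. COX7A1, known from muscle, did not exceed 1 count, against a mean of 95.2 CPM for COX7A2. COX6A2 had 0 counts in each of the 12 libraries, whereas COX6A1 had a mean of 162 counts. Another gene model on the same strand covers 95.9% of the COX6A1 span, so this is a listed count and not a level. COX6B2 lay at 0.520 CPM against 100.04 CPM for COX6B1, and NDUFA4L2, known as a hypoxia-induced form, lay at 0.559 CPM against 46.1 CPM for NDUFA4.

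Several widely expressed subunits had almost no counts in this table. Of the 16 rows left out by the count rule, 12 had at least 95% of their span covered by another gene model on the same strand, among them COX8A, NDUFB8, NDUFA9, NDUFA11, NDUFC2, UQCR11, ATP5PO and ATP5MF. COX8A had 0 counts in all libraries and NDUFC2 had a mean of 1.58 counts, values that are given as listed counts and not as levels. The part of the overlap in them was not tested. Of all 979 genes covered to this degree on the same strand, 10.8% passed the count rule, with a median of 0 counts. Of 603 genes covered to this degree on the other strand only, 46.1% passed, with a median of 3.17 counts. Of 13358 genes without any overlap, 64.5% passed, with a median of 221 counts. Among the members, ATP5PD lies opposite KCTD2 over its whole span and held 1969 to 2654 counts per library. ATP5PO, covered to 100% on the same strand, held 0. Members just inside the rule were NDUFA13 with a mean of 10.3 counts, COX6B2 with 11.3 and NDUFA4L2 with 12.1, and just outside was ATP5MF with 5.33. Of these, NDUFA13 and ATP5MF are covered to over 95% on the same strand. The other 4 rows left out, COX6A2, COX7A1, COX4I2 and COX7B2, have no such overlap. UQCRH has a near-identical copy, UQCRHL, and its value is uncertain for that reason.

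**Figure D1:**
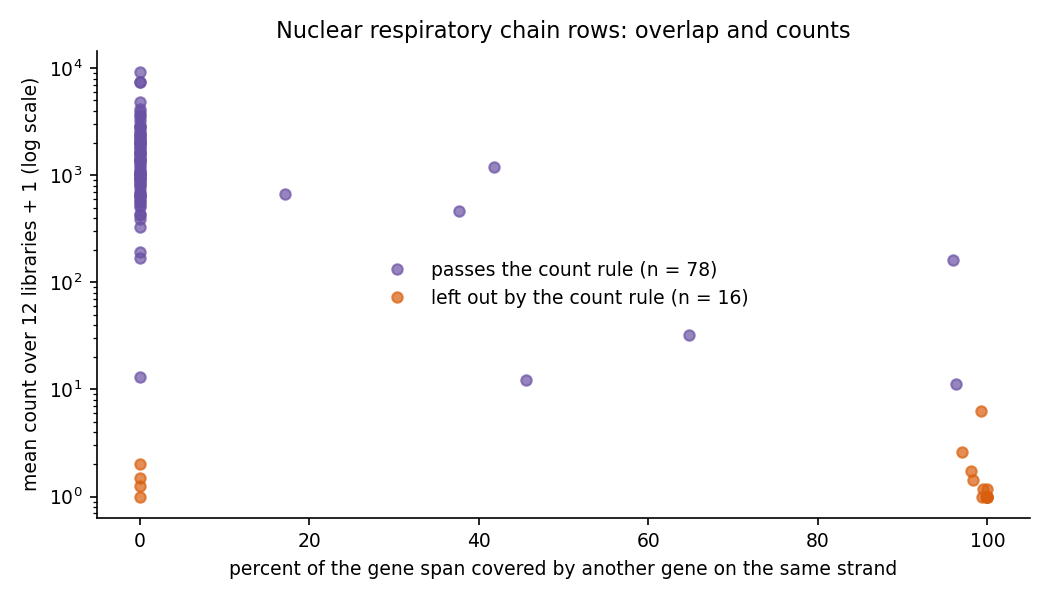
Mean count over the 12 libraries plus 1 (log axis) against the percent of the gene span covered by another gene on the same strand, for the 94 nuclear rows before the count rule, with 78 passing rows in purple and 16 rows left out in orange. Of the 14 points at 95% or more, 12 are rows left out, and the 2 that pass are COX6A1 and NDUFA13.

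With KAP1 present, 30 min of serum was compared with none to ask which members responded. In DMSO-treated cells 3 of 13 chrM genes (23.1%) rose and none fell, against 9.18% of all genes tested that rose. The 3 genes were MT-ND1 and MT-ND2, core membrane subunits of complex I, and MT-ATP8, a subunit of the ATP synthase. All 13 fitted log2 fold changes were above 0, against 4717 of all 13093 genes. Their median was 0.14 against a median of -0.07 over all genes.

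MT-ND1 lay at 3573, 3595 and 3458 CPM in DMSO-S0 and at 4874, 4350 and 4245 CPM in DMSO-S30. Every serum library lay above every starved library, and the rise was 0.34 ± 0.08 on the log2 scale (SE, n = 3 per group, edgeR adjusted p = 0.00147). MT-ND2 lay at 3691, 3719 and 3772 CPM without serum and at 5012, 4493 and 4546 CPM with serum. This was an increase of 0.32 ± 0.07 on the log2 scale (edgeR adjusted p = 0.00181). MT-ATP8 lay at 2768, 2852 and 2923 CPM without serum and at 3637, 3154 and 3251 CPM with serum, again without overlap. Its increase of 0.21 ± 0.07 (edgeR adjusted p = 0.0309) lost the call when any of 4 libraries was left out, namely DMSO-S0 replicates 2 and 3 and DMSO-S30 replicates 1 and 3, with adjusted p up to 0.143.

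The other 10 chrM genes did not pass the threshold. The nearest were MT-ATP6, which encodes the proton channel subunit of the ATP synthase, at 0.20 (adjusted p = 0.0573), and MT-ND3 of complex I at 0.17 (adjusted p = 0.058). The MT-ATP6 value was close to the 0.21 of MT-ATP8, the called gene that it overlaps. The complex IV genes MT-CO1, MT-CO2 and MT-CO3 had values of 0.14, 0.16 and 0.12, and MT-CYB, the cytochrome b of complex III, had 0.12. The remaining complex I genes ranged from 0.01 for MT-ND4L over 0.09 for MT-ND5 to 0.13 for MT-ND4 and for MT-ND6. The count depended on the scaling. In fits without the spike-in factor, upper-quartile scaling called 4 of 13 chrM genes higher, TMM scaling and ERCC library sizes 10 each and DESeq2 12. In 11 of 13 chrM genes the serum libraries lay above all starved libraries in CPM, against 13.8% of all genes.

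With KAP1 depleted, 3 of 13 chrM genes rose with serum, against 9.09% of all genes, and they were again MT-ND1, MT-ND2 and MT-ATP8. Across all genes 7.36% were called higher in both treatments, comparisons that share no library. MT-ND1 lay at 3522, 3320 and 3841 CPM in dTAG-S0 and at 4210, 4647 and 4347 CPM in dTAG-S30, a difference of 0.31 ± 0.07 (edgeR adjusted p = 0.00287). MT-ND2 lay at 3840, 3472 and 3970 CPM without serum and at 4347, 4781 and 4712 CPM with serum, a difference of 0.30 ± 0.07 (edgeR adjusted p = 0.00281). For both genes the groups did not overlap. MT-ATP8 rose by 0.21 ± 0.07 (edgeR adjusted p = 0.028), a call that was lost without any of dTAG-S0 replicates 1 and 2 and dTAG-S30 replicates 2 and 3, with adjusted p up to 0.166.

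The other 10 chrM genes ranged from 0.04 for MT-ND3 to 0.16 for MT-ATP6 (adjusted p = 0.12) in dTAG-treated cells. All 13 values were above 0, against 4819 of all 13093 genes, with a median of 0.13 against -0.06 over all genes. MT-ND5 had 0.14, MT-ND6 0.14, MT-CO1 0.13, MT-ND4 0.11, MT-CYB 0.10, MT-CO2 0.10, MT-CO3 0.10 and MT-ND4L 0.05. Only 4 of 13 chrM genes had groups without overlap in the upward direction, against 12.6% of all genes. In the other 9 at least 1 starved library reached the lowest serum library. Without the spike-in factor, 3 of 13 were called higher with upper-quartile scaling, 5 with TMM scaling and 7 with DESeq2 or ERCC library sizes.

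**Figure D2:**
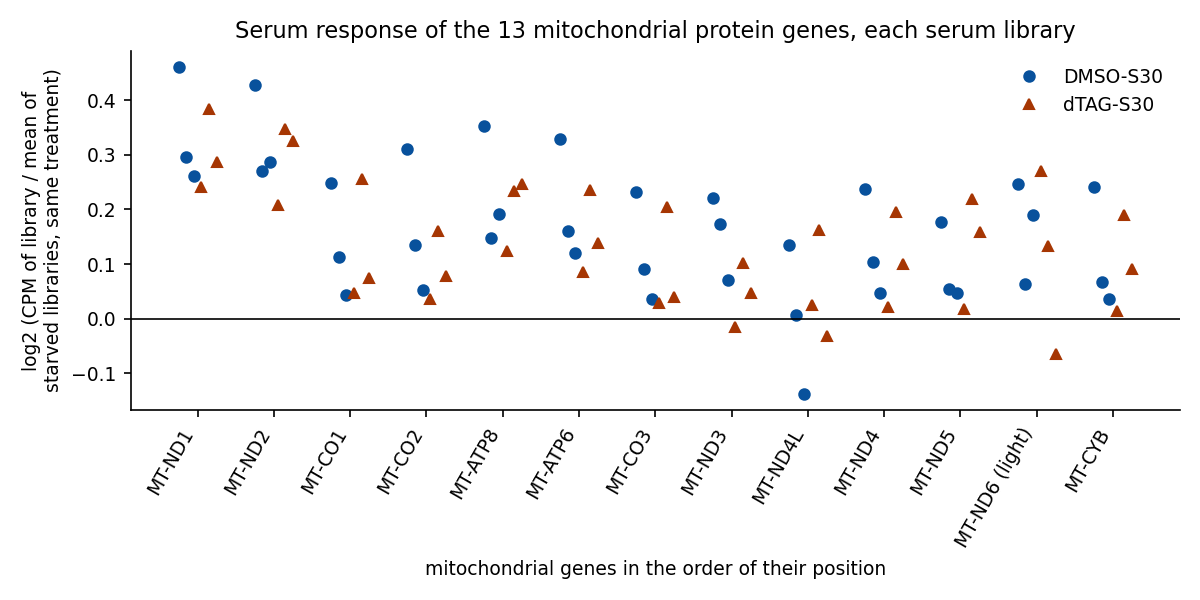
Log2 ratio of each serum library's CPM to the mean of the 3 starved libraries of the same treatment (y axis) for the 13 chrM genes in order of position (x axis), with DMSO-S30 libraries as blue circles and dTAG-S30 libraries as brown triangles. MT-ND1 and MT-ND2 at the left are the largest values in 5 of 6 libraries, and DMSO-S30 replicate 1 is the highest DMSO-S30 library for each gene.

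The change was unequal along the heavy strand. MT-ND1 and MT-ND2, the first protein genes after the ribosomal RNA genes, held the 2 largest values among the 13 genes in 5 of 6 serum libraries. The exception was dTAG-S30 replicate 1, where MT-ND6 was larger at 0.27. The summed counts of both genes were therefore set against those of the other 10 heavy-strand genes, a ratio that no scaling of a library can move and that was chosen after the values were seen.

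On the log2 scale this ratio was -3.27, -3.28 and -3.22 in DMSO-S0 and -3.07, -3.08 and -3.04 in DMSO-S30. In dTAG-treated cells it was -3.18, -3.21 and -3.18 without serum and -3.00, -3.03 and -2.98 with serum. The groups with and without serum did not overlap in either treatment, with differences of 0.19 ± 0.02 in DMSO and 0.19 ± 0.02 in dTAG (SE, n = 3 per group). The dTAG libraries lay above the DMSO libraries too, by 0.07 ± 0.02 without serum and 0.06 ± 0.02 with serum, also without overlap. Leaving out any 1 library left the serum differences between 0.17 and 0.21. No test was made of this ratio because of how it was chosen.

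MT-ND6, the single protein gene of the other strand, held 3.97 to 4.06 counts per 1000 heavy-strand counts in DMSO-S0 and 3.85 to 4.35 in DMSO-S30. In dTAG-S0 the range was 3.83 to 4.68 and in dTAG-S30 it was 3.66 to 4.82. The 4 groups overlapped, so they did not differ beyond their spread. The heavy-strand transcript runs across MT-ND6 in the antisense direction, and its part in the MT-ND6 counts was not tested.

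With serum, calls among the nuclear members were mostly downward. In DMSO-treated cells 0 of 78 rose and 9 (11.5%) fell, against 17.1% of all genes that fell, a share below the background. Their median log2 fold change was -0.07, the same as over all genes, and 60 of 78 values were below 0, against 8376 of all 13093. By complex, 5 of 33 complex I subunits, 2 of 8 assembly factors, 0 of 8 complex III genes, 1 of 13 complex IV genes and 1 of 16 complex V genes fell. Without DMSO-S0 replicate 2, the split of nuclear calls was 4 higher and 4 lower in place of 0 and 9, and the median was 0.01. Without the spike-in factor, the split was 1 higher and 11 lower with upper-quartile scaling, 2 and 5 with TMM scaling and with DESeq2, and 1 and 3 with library sizes from the ERCC spike-ins.

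The nuclear member with the lowest p was an assembly factor. NDUFAF6, an assembly factor of complex I, lay at 107, 107 and 113 CPM in DMSO-S0 and at 73.0, 80.3 and 84.5 CPM in DMSO-S30, without overlap. It fell by 0.45 ± 0.06 on the log2 scale (edgeR adjusted p = 5.42e-06). Of its span 11.0% lies opposite CCNE2 and TP53INP1, and their part in its counts was not tested. NDUFAF5, which modifies a complex I subunit during assembly, lay at 50.4, 46.6 and 45.7 CPM without serum and at 38.1, 37.3 and 37.3 CPM with serum. It fell by 0.34 ± 0.07 (edgeR adjusted p = 0.00105), a call that missed the threshold with library sizes from the ERCC spike-ins (adjusted p = 0.0590).

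ATP5PF, whose promoter is printed above, lay at 60.8, 61.0 and 54.2 CPM in DMSO-S0 and at 44.7, 45.6 and 43.3 CPM in DMSO-S30. It fell by 0.38 ± 0.07 (edgeR adjusted p = 8.31e-05), and every serum library lay below every starved library. GABPA, the ETS factor gene on the opposite strand that overlaps the ATP5PF span, fell by 0.21 ± 0.07 (edgeR adjusted p = 0.0221). Genes on the opposite strand cover 11.3% of the ATP5PF span, and their part in its counts was not tested.

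The other nuclear genes called lower encode accessory subunits. NDUFAB1, the mitochondrial acyl carrier protein, fell by 0.25 ± 0.07, NDUFB1 by 0.25 ± 0.08 and NDUFC1 by 0.28 ± 0.09, with adjusted p of 0.0139, 0.0154 and 0.0249. COX6C fell by 0.24 ± 0.08 and NDUFB5 by 0.19 ± 0.07. NDUFAB1, NDUFB1 and COX6C lost the call with TMM scaling, with library sizes from the ERCC spike-ins and with DESeq2, and NDUFC1 lost it with the ERCC library sizes. Leaving out 1 library ended the NDUFC1 call for each DMSO library except DMSO-S30 replicate 1, with adjusted p up to 0.108. The calls also ended for NDUFB1 and COX6C without DMSO-S0 replicate 2 or DMSO-S30 replicate 3 and for NDUFAB1 without DMSO-S0 replicate 2 or DMSO-S30 replicate 2, with adjusted p up to 0.109, 0.242 and 0.151. The readthrough model NDUFC2-KCTD14 fell by 1.08 ± 0.29 (edgeR adjusted p = 0.00605) from 1.64 to 2.26 CPM to 0.736 to 1.32 CPM, on 15 to 48 counts per library and with 64.8% of its span shared with NDUFC2 and KCTD14.

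**Figure D3:**
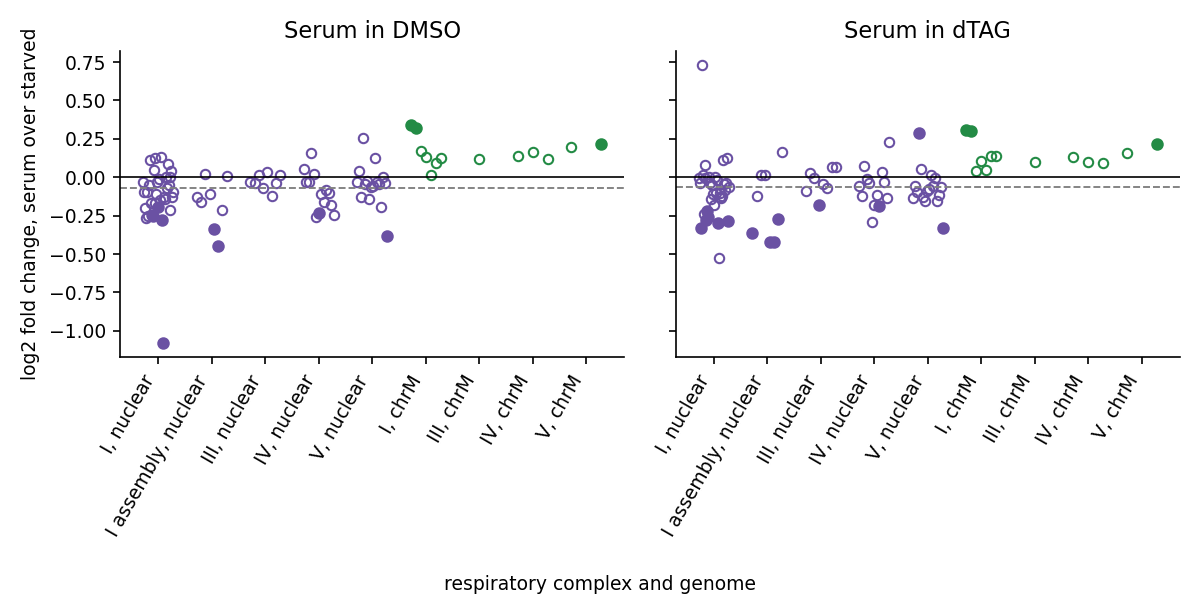
Log2 fold change with serum (y axis) of nuclear members (purple) and chrM genes (green) by complex in DMSO-treated (left) and dTAG-treated (right) cells, with 1 point per gene, filled where called at an adjusted p under 0.05, and the median of all genes as a dashed line (-0.07 and -0.06). All chrM points lie above 0, and 60 of 78 nuclear points lie below 0 in each treatment. Of all 13093 genes, 8376 lie below 0 in DMSO and 8274 in dTAG.

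In dTAG-treated cells 13 of 78 nuclear members (16.7%) fell with serum, against 15.4% of all genes, and 1 rose (1.28%), a share near the background for the falls. The median was -0.08 against -0.06 over all genes. Of the 78 nuclear members 6 (7.69%) were called lower in both treatments, a share below the 10.3% of all genes. They were ATP5PF, NDUFAB1, NDUFAF5, NDUFAF6, NDUFB1 and NDUFC1, and made up 66.7% of the 9 called in DMSO and 46.2% of the 13 called in dTAG. NDUFB1 fell by 0.26 ± 0.07 in dTAG, a call that was lost with TMM scaling, with ERCC library sizes and without dTAG-S0 replicate 2 (adjusted p = 0.0728). Nuclear members without overlap in the downward direction numbered 18 of 78 in DMSO, against 30.6% of all genes, and 21 of 78 in dTAG, against 24.9%.

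NDUFAF6 lay at 99.3, 110.5 and 101 CPM in dTAG-S0 and at 78.2, 74.8 and 79.5 CPM in dTAG-S30, and fell by 0.42 ± 0.06 (edgeR adjusted p = 1.11e-05). NDUFAF5 lay at 49.3, 50.01 and 48.3 CPM without serum and at 40.5, 34.5 and 35.2 CPM with serum, and fell by 0.42 ± 0.07 (edgeR adjusted p = 5.48e-05). Both assembly factors were without overlap between the groups. ATP5PF lay at 57.5, 56.4 and 53.9 CPM without serum and at 43.9, 45.3 and 44.8 CPM with serum, and fell by 0.33 ± 0.06 (edgeR adjusted p = 0.000363).

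Of the genes called in dTAG-treated cells but not in DMSO-treated cells, NDUFV2 encodes a subunit of the NADH-oxidizing module of complex I. It lay at 99.9, 99.9 and 95.5 CPM without serum and at 82.5, 82.3 and 78.4 CPM with serum, and fell by 0.28 ± 0.06 (edgeR adjusted p = 0.000471), against a value of -0.13 in DMSO (adjusted p = 0.109). NDUFAF1, an assembly factor, fell by 0.36 ± 0.09, NDUFA8 by 0.28 ± 0.07 and NDUFA12 by 0.33 ± 0.09. NDUFA8 lost its call without dTAG-S30 replicate 1 (adjusted p = 0.0540) and NDUFA12 lost it without dTAG-S0 replicate 2 (adjusted p = 0.0837) and with ERCC library sizes. The difference between treatments was not called for any of them, with interaction values of -0.16 ± 0.08 for NDUFV2 and -0.24 ± 0.14 for NDUFAF1 (both with an edgeR adjusted p of 0.9999).

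ATP5F1D, the delta subunit of the catalytic part of the ATP synthase, was the single nuclear member called higher. It lay at 34.5, 26.3 and 28.6 CPM in dTAG-S0 and at 34.1, 35.6 and 37.6 CPM in dTAG-S30, so the groups overlapped. The difference was 0.29 ± 0.09 (edgeR adjusted p = 0.0245), and the call was lost without dTAG-S0 replicate 2 or 3 or dTAG-S30 replicate 3, with adjusted p up to 0.151. In DMSO its value was 0.25 (adjusted p = 0.0522).

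COX7A2L, which helps to join complexes III and IV into supercomplexes, fell by 0.18 ± 0.06 in dTAG (edgeR adjusted p = 0.0237) and had -0.16 ± 0.06 in DMSO (adjusted p = 0.0542). ATP5IF1, the inhibitor of ATP hydrolysis by the synthase, had -0.02 ± 0.07 in DMSO and -0.13 ± 0.07 in dTAG, neither called. NDUFAF7 and UQCRC2 completed the genes called lower in dTAG, with -0.27 and -0.18. Without the spike-in factor, the nuclear split was 1 higher and 14 lower with upper-quartile scaling, 3 and 7 with TMM scaling, 2 and 8 with DESeq2, and 0 and 6 with ERCC library sizes.

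**Figure D4:**
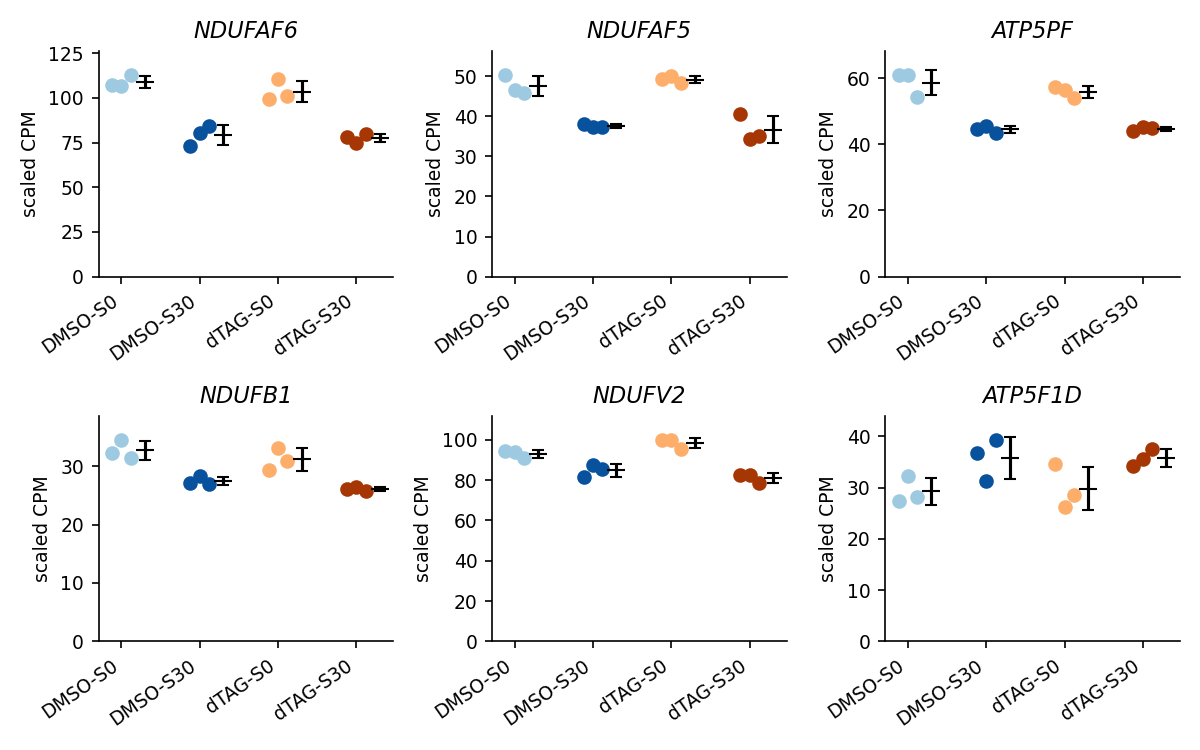
CPM after upper-quartile scaling (y axis from 0) of 6 nuclear members in each library by group, with the mean and SD of 3 libraries as black bars. NDUFAF6, NDUFAF5, ATP5PF and NDUFB1 lie lower in both serum groups, NDUFV2 is shown for its call in dTAG, and ATP5F1D is the nuclear gene called higher in dTAG.

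Longer nuclear members had lower serum values. Across the 78 nuclear members Spearman's rho between gene span and the log2 fold change was -0.45 in DMSO and -0.56 in dTAG, and across all 13093 genes it was -0.21 and -0.11. This is a correlation across genes of the same libraries, in which introns were counted, and genes are not independent replicates. NDUFAF6 spans 220689 bases, whereas ATP5F1D spans 3081.

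The balance between the genomes was taken in each library as the mean log2 CPM over the chrM genes minus that over the nuclear members, which no scaling of a library can move. It was 6.22, 6.16 and 6.27 in DMSO-S0 and 6.62, 6.43 and 6.42 in DMSO-S30. It was 6.24, 6.11 and 6.27 in dTAG-S0 and 6.41, 6.48 and 6.37 in dTAG-S30. Serum libraries lay above starved libraries without overlap in both treatments, by 0.27 ± 0.07 in DMSO and 0.22 ± 0.06 in dTAG (SE, n = 3 per group), and no p was computed because the members were chosen with results known. Without DMSO-S30 replicate 1, the highest library, the difference in DMSO was 0.21.

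The shift was seen in complexes I, IV and V without overlap in either treatment. Within complex I it was 0.31 ± 0.07 in DMSO and 0.23 ± 0.05 in dTAG, within complex IV 0.23 ± 0.09 and 0.17 ± 0.07, and within complex V 0.28 ± 0.09 and 0.24 ± 0.06. Within complex III, where MT-CYB is the single chrM gene, it was 0.16 ± 0.08 in DMSO with overlapping groups and 0.12 ± 0.05 in dTAG.

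Against the ERCC spike-ins, synthetic RNAs added to a fixed amount of total RNA, chrM genes held 0.762 to 0.809 counts per spike-in count in DMSO-S0 and 0.881 to 0.963 in DMSO-S30. In dTAG-treated cells the ranges were 0.747 to 0.787 and 0.853 to 0.889, so serum libraries were higher without overlap in both. The nuclear members held 0.0620 to 0.0644 counts per spike-in count in DMSO-S0 and 0.0615 to 0.0640 in DMSO-S30, and 0.0611 to 0.0658 in dTAG-S0 and 0.0586 to 0.0635 in dTAG-S30. These nuclear ranges overlapped. As a share of all counts in genes, the chrM genes were higher with serum by 0.616 ± 0.316 percentage points in DMSO without overlap and by 0.483 ± 0.322 in dTAG with overlapping groups (SE). In bulk RNA, a change in the number of cells or mitochondria and a change in RNA per cell cannot be told apart.

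**Figure D5:**
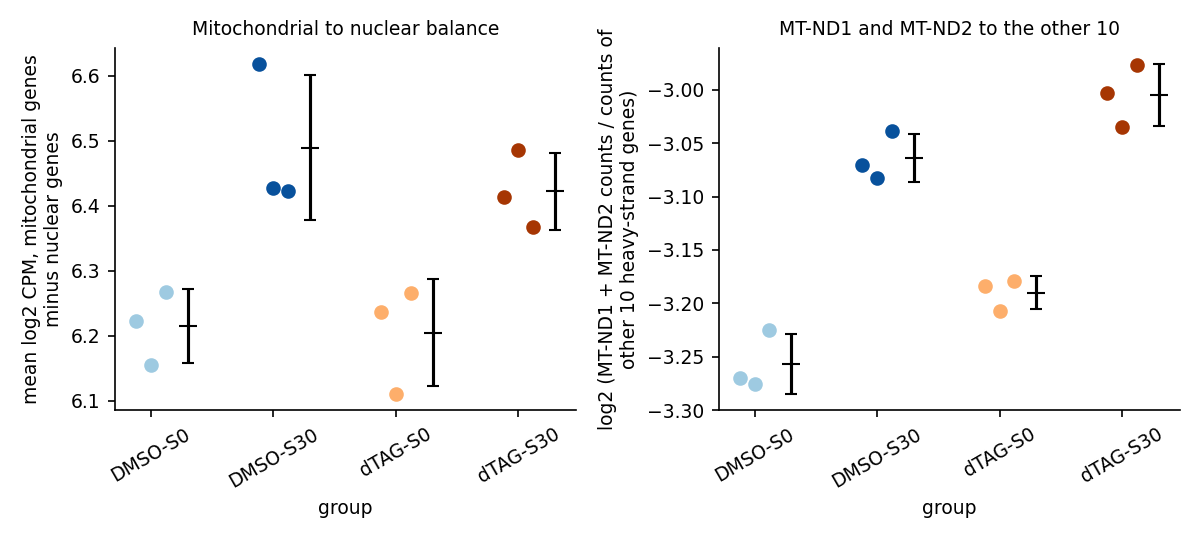
Left, the balance of each library, as mean log2 CPM of the 13 chrM genes minus that of the 78 nuclear members. Right, log2 of the summed counts of MT-ND1 and MT-ND2 over those of the other 10 heavy-strand genes, with points for libraries and black bars for mean and SD of 3 libraries. Serum groups lie above starved groups in both panels, and dTAG groups lie above the matching DMSO groups in the right panel.

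Depletion of KAP1 changed no member past the threshold. In starved cells 0 of 13 chrM genes and 0 of 78 nuclear members were called by edgeR, against 1.31% of all genes. At an unadjusted p under 0.05 there were 0 and 4 (5.13%), against 11.7% of all genes. DESeq2 called 0 and 0. The chrM values ranged from -0.12 for MT-ND4L to 0.01 for MT-ND2. The lowest nuclear p-values belonged to UQCRH at -0.16 ± 0.07, NDUFA6 at 0.16 ± 0.07 and COX7C at -0.21 ± 0.10, with adjusted p of 0.346, 0.382 and 0.385. For COX7C the libraries lay at 218, 242 and 176 CPM in DMSO-S0 and 155, 202 and 182 CPM in dTAG-S0, an overlap.

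In serum-stimulated cells 0 of 13 chrM genes and 0 of 78 nuclear members were called between dTAG and DMSO by edgeR, against 1.23% of all genes. At an unadjusted p under 0.05 there were 1 (7.69%) and 3 (3.85%), against 10.4% of all genes. DESeq2 called 0 and 0. All 13 chrM values were below 0, with a median of -0.07, and 61 of 78 nuclear values were below 0, with a median of -0.04. Over all 13093 genes, 6578 were below 0, with a median of -0.00. MT-ND3 was lowest at -0.17 ± 0.07 (edgeR adjusted p = 0.283), with 1129, 1092 and 1017 CPM in DMSO-S30 and 925, 1003 and 966 CPM in dTAG-S30, which did not overlap. The nuclear genes with the lowest p-values were NDUFB4 at -0.15, ATP5IF1 at -0.15 and ATP5MC2 at -0.13, none past the threshold.

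The balance between the genomes overlapped between dTAG and DMSO libraries, with differences of -0.01 ± 0.06 without serum and -0.07 ± 0.07 with serum. The interaction, which asks whether the serum response differed between dTAG-treated and DMSO-treated cells, called 0 of 13 chrM genes and 0 of 78 nuclear members by edgeR, against 0.0382% of all genes. None of either had an unadjusted p under 0.05, against 3.16% of all genes, and DESeq2 called 0 and 0. The chrM interaction values ranged from -0.13 ± 0.09 for MT-ND3 to 0.04 ± 0.11 for MT-ND5, and that of the balance was -0.06 ± 0.09. A difference in serum response of the size of these errors would not be detectable with 3 libraries per group.

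Genes that work with the respiratory chain but are no members were counted in the same fit, against the shares of all genes given above. Of 24 tested assembly factors of complexes III and IV, 1 rose and 10 (41.7%) fell in DMSO, and 1 rose and 9 (37.5%) fell in dTAG, with 8 and 9 called by DESeq2. TTC19, which takes part in complex III turnover, rose from 139 ± 3.24 to 268 ± 11.7 CPM in DMSO (SD, n = 3), 0.95 ± 0.06 on the log2 scale (edgeR adjusted p = 7.94e-13). In dTAG it rose by 0.80 ± 0.06, and part of its span lies opposite NCOR1. COX11 and COX19, which serve copper delivery to complex IV, fell by 0.42 and 0.51 in DMSO.

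Of 26 tested genes for mitochondrial transcription and RNA handling, 1 rose and 12 (46.2%) fell in DMSO and 0 rose and 12 fell in dTAG, with 9 called by DESeq2 in each. MTERF1, a termination factor, fell by 0.43 and 0.37 in DMSO and dTAG, and POLG2, the accessory subunit of the mitochondrial DNA polymerase, fell by 0.43 and 0.40. MTERF4, which acts in mitochondrial ribosome assembly, fell by 0.34 in DMSO, and FASTKD3 fell by 0.49 in dTAG. Of 72 mitochondrial ribosomal genes 3 rose and 10 (13.9%) fell in DMSO and 0 rose and 13 (18.1%) fell in dTAG, near the shares of all genes that fell, and DESeq2 called 11 and 9. MRPS31 had -0.39 and -0.40 and MRPS5 had -0.31 and -0.34, all called. MRPL49 rose with dTAG in starved cells by 0.34 ± 0.06 (edgeR adjusted p = 0.00268), the single call of these lists outside the serum comparisons.

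Of 11 tested nuclear regulators, MYC rose by 0.57 in DMSO and 0.63 in dTAG, and CREB1 in DMSO and PPRC1 in dTAG rose by 0.17 each. TFEB, NRF1 and GABPA fell by 0.71, 0.21 and 0.21 in DMSO, and GABPA and GABPB1 fell by 0.25 and 0.20 in dTAG. Of the 3 tested complex II genes, SDHC fell by 0.19 in DMSO and SDHB by 0.22 in dTAG, and DESeq2 called 0 in either. CYCS, cytochrome c itself, rose by 0.25 in DMSO (edgeR adjusted p = 0.00404) and had 0.07 in dTAG (adjusted p = 0.464). The difference between treatments was not called for CYCS, with an interaction value of -0.18 ± 0.09 (edgeR adjusted p = 0.9999). Of 13 genes of the tricarboxylic acid cycle, 1 rose and 2 fell in dTAG, and DESeq2 called 3. The 2 that fell were IDH3A and DLST, by 0.24 and 0.17. In DMSO edgeR called 0 of these 13 and DESeq2 0, with 2 at an unadjusted p under 0.05, against 38.0% of all genes.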

How the data were processed

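RNA-Seq libraries were made after ribosomal RNA depletion, with ERCC spike-in RNA added to a fixed input of RNA. Per the paper's methods and the submitters' processing notes, the authors trimmed reads with Trim Galore 0.6.4, aligned them with STAR to hg38 and deposited whole-number counts per gene from featureCounts (Subread 1.6.3), taken over the entire span of protein-coding genes. The strand setting of the counting is not given in the sources used here. The deposited table also holds gene coordinates and span length in bases, a column of no sample.

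Genes with 10 counts in at least 6 libraries were tested on the deposited counts with R 4.3.3 and edgeR 4.0.16, by the quasi-likelihood test with Benjamini-Hochberg adjustment over 13093 genes. The study names EDASeq, RUVSeq and edgeR for its spike-in normalization. Here libraries were scaled by the upper quartile (the 75th percentile) and 1 factor of unwanted variation was computed as in RUVg from 69 ERCC transcripts, both settings chosen for this work. All 12 libraries shared one fit with the 4 groups and this factor. Mean log2 CPM used a prior count of 2. Alternatives were no spike-in factor (with upper-quartile scaling, TMM scaling, ERCC library sizes or DESeq2 1.42.0), 2 factors, the likelihood ratio test of edgeR, no count filter, only the libraries compared, a replicate block, and leaving out each library. The code was tested on simulated data. All 13 chrM genes were named, and of the nuclear members the 8 with the lowest p among those called in each direction, the 3 with the lowest p where fewer were called, the 5 highest per length, restricted isoforms, ATP5IF1 and COX7A2L. Other lists were named by at most the 3 lowest p per comparison. Further names complete a count and were chosen after their values were seen. Members and lists were chosen with earlier results of these data known. Total counts, 20537682 to 26278707 per library, limit the precision of low genes, and amplified reads are not independent molecules. A single further result is not reported here.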

Additional observations from a re-analysis of the deposited data

How the results depend on the processing

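No called value recomputed under the alternatives changed its sign, but counts of calls moved. TMM scaling, ERCC library sizes and DESeq2 were run without the spike-in factor, so they change 2 choices. Dropping the factor alone gave 4 and 3 chrM calls and 12 and 15 nuclear calls with serum in DMSO and dTAG. For chrM genes with serum in DMSO, 3 calls became 10 with TMM scaling, 10 with ERCC library sizes, 6 with 2 spike-in factors, 12 with DESeq2, 5 with the likelihood ratio test and 11 without the count filter, and 2 to 5 with 1 library left out (5 without DMSO-S0 replicate 1 or dTAG-S0 replicate 2). In dTAG, 3 became 5 with TMM scaling, 7 with ERCC library sizes, 5 with 2 factors, 7 with DESeq2, 6 without the filter, 5 with only the libraries compared, and 2 to 5 with 1 library left out (5 without dTAG-S30 replicate 1). For nuclear members with serum, ERCC library sizes gave 4 in place of 9 in DMSO and 6 in place of 14 in dTAG. Leaving out 1 library gave 5 to 13 in DMSO (5 without DMSO-S30 replicate 3) and 9 to 15 in dTAG (9 without dTAG-S30 replicate 3). With dTAG in starved cells the nuclear count was 2 without the filter and 0 to 1 with 1 library left out (1 without DMSO-S0 replicate 2). The cause was not tested.

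Over all genes, ERCC library sizes called 1766 in place of 3439 in DMSO and 1646 in place of 3203 in dTAG. The share of calls that were higher was 34.95% in DMSO and 37.2% in dTAG, against 59.8% and 61.6% with TMM scaling, 58.5% and 59.0% with DESeq2 and 66.5% and 62.5% with ERCC library sizes. MT-ND1, MT-ND2, ATP5PF and NDUFAF6 kept their calls in both treatments under every alternative run. The balance between the genomes stayed at 0.21 to 0.31 in DMSO and 0.17 to 0.25 in dTAG with 1 library left out.

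Replicate numbers did not pair the libraries, with correlations of same-numbered deviations of -0.153 to 0.0986. The fit with a replicate block called 3 chrM genes in each treatment and 10 and 16 nuclear members, and moved no count of calls by over 1.5 times. The interaction has no fit with only the libraries compared, since it uses all 12. Low counts limit NDUFA13, COX6B2, NDUFA4L2 and NDUFC2-KCTD14.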
